A study of Mus musculus with 6 samples.

Results

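The transcripts of 10 genes of the Notch pathway were measured in cultured mouse cerebellar granule neurons (CGNs). These were the ligands Jag1, Jag2, Dll1 and Dll3, the receptors Notch1, Notch2 and Notch3, and the targets Hes1, Hes5 and Hey1, which were chosen by name and made up 10 of the 55341 gene symbols counted in each library. The libraries came from 3 cultures treated with the vehicle DMSO and 3 treated with GSK-126, a small molecule that blocks the catalytic activity of EZH2 and so the trimethylation of lysine 27 on histone H3 (H3K27me3), which marks silenced genes. Granule neuron progenitors had been isolated on a Percoll gradient from early postnatal CD1-IGS mice of both sexes, and each replicate was grown from the pooled cerebella of litters. All cultures also received cytosine arabinoside, which blocks the division of non-neuronal cells. The labels named the agent and a replicate number and gave the tissue as cerebellum. They gave neither a dose nor a day, although a code carried by the table names can be read as addition of the inhibitor on the first day in culture.

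Notch signalling passes between touching cells. A ligand on the surface of the sending cell binds a receptor on its neighbour, the receptor is cut first by ADAM10 and then by the gamma-secretase complex, and its intracellular domain enters the nucleus, where with the DNA-binding protein RBPJ and a Mastermind coactivator it switches on Hes and Hey genes. In the developing cerebellum the pathway is known for keeping granule neuron progenitors dividing and for shaping glia, including the Bergmann glia. HES and HEY proteins are basic helix-loop-helix repressors that hold back neuronal differentiation genes.

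After GSK-126 the ligand Jag1 rose 1.54-fold, from 43.0 ± 10.6 to 65.2 ± 7.46 CPM (counts per 1000000 counts of scaled library size, SD, n = 3 each). None of the other 8 members tested passed the threshold, an adjusted p of 0.05 over all 16343 genes tested in a fit that compared the libraries within pairs of the same replicate number (edgeR quasi-likelihood test). Dll3 had too few reads to be tested. In this fit, 2.23% of all genes tested were called higher and 1.42% lower, against 1 higher and 0 lower among the 9 members tested. Of these 9 members, 1 had an unadjusted p under 0.05 with edgeR, where 16.7% of all genes tested had one. With DESeq2 1 member had one and with limma-voom 2, in which Notch3 was the second. Without the pairing, 0 of the 9 members and 0 of all genes were called, 1 member and 981 of all genes had an unadjusted p under 0.05, and Jag1 had a log2 fold change of 0.60 with an adjusted p of 0.814.

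**Figure D1:**
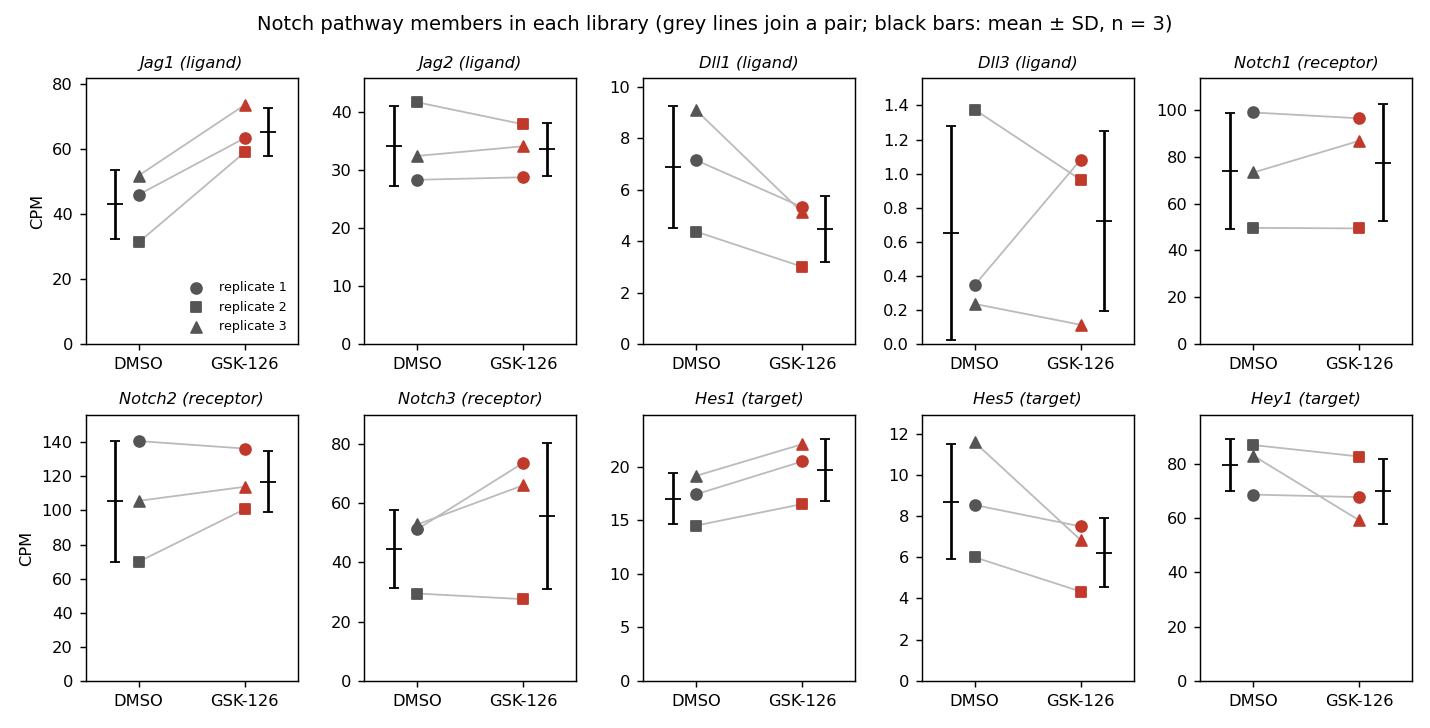
CPM of each of the 10 members in the 3 DMSO libraries (dark) and the 3 GSK-126 libraries (red), with marker shape giving the replicate number, grey lines joining libraries of the same number and black bars giving the mean ± SD (n = 3). Each panel has its own axis from 0; the Jag1 groups do not overlap (31.3 to 51.8 against 58.9 to 73.5 CPM), and those of the other 9 members do.

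The libraries held from 8058760 to 12047837 counts over genes, and a count of 3 was worth 0.250 to 0.375 CPM. Granule neuron markers were present in every library, with Pax6 from 164 to 194 CPM and Neurod1 from 351 to 840, and the progenitor genes Atoh1 and Gli1 had at most 0.709 and 0.827 CPM. Barhl1, also on the progenitor list, ran from 70.8 to 132 CPM, and the division genes Mki67 and Top2a from 62.5 to 119 and from 74.0 to 127. Other cell types were also present. Over a list of 10 genes of astrocytes and Bergmann glia the summed level ran from 2728 to 7905 CPM with DMSO and from 2725 to 8148 with GSK-126, and over 5 fibroblast genes from 6698 to 8767 and from 8801 to 9749. In bulk RNA of this kind, fewer cells of a type and less RNA per cell cannot be told apart.

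The order of the members in vehicle-treated cultures was read from CPM per kb of annotated exon, since longer transcripts yield more reads. Hey1 stood highest with DMSO, at 24.3 ± 2.94 CPM per kb (SD, n = 3), above Notch2 in 3 of 3 libraries and with no overlap. Then came a group whose neighbours all overlapped in range: Notch2 (9.78 ± 3.29), Hes1 (8.36 ± 1.15), Jag1 (7.37 ± 1.81), Hes5 (6.39 ± 2.05), Notch3 (5.50 ± 1.61), Notch1 (5.19 ± 1.73) and Jag2 (4.91 ± 0.984). Dll1 lay below all of these at 1.63 ± 0.563 CPM per kb, and Dll3 below Dll1 at 0.229 ± 0.220, in both cases without overlap. A target gene thus had the highest level and the Delta-like ligands had the lowest levels. With GSK-126 the mean level of Jag1 was 11.2 ± 1.28 CPM per kb, which placed it at rank 2 in place of rank 4. Hes5, at 4.57 ± 1.22, moved from rank 5 to rank 8, close to Jag2 (4.83 ± 0.659) and Notch1 (5.45 ± 1.74). Hes5 was not called between treatments. Since neighbours in this group overlapped in range with DMSO, ranks within it are not firm.

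**Figure D2:**
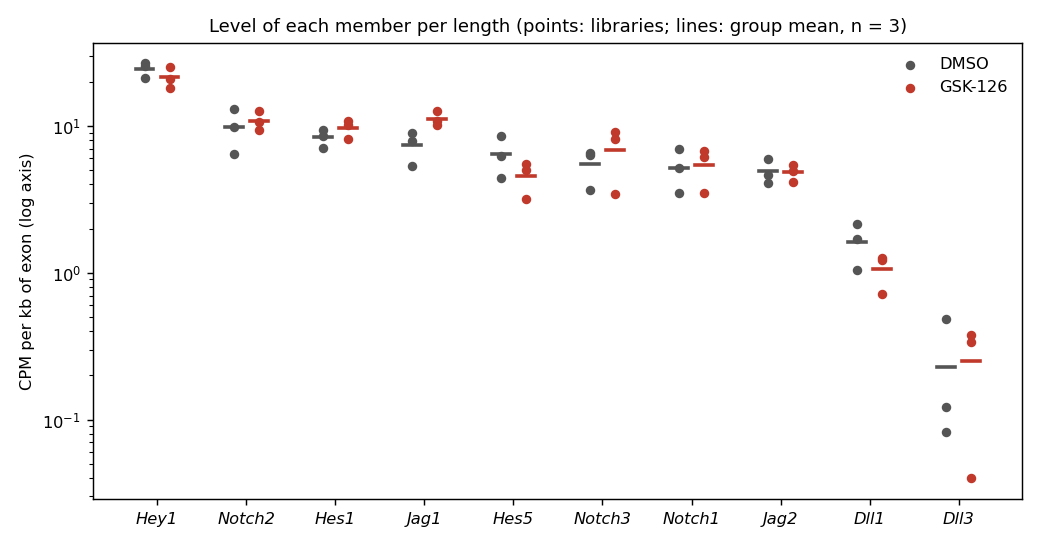
CPM per kb of exon (log axis) for the 10 members, ordered by their DMSO mean, with points for the 3 DMSO (dark) and 3 GSK-126 (red) libraries and lines for group means. Hey1 is highest at 24.3 CPM per kb with DMSO and Dll3 lowest at 0.229.

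Among the ligands, Jag1 and Jag2 belong to the Serrate type and Dll1 and Dll3 to the Delta type. Jag1 lies on chromosome 2 (GRCm38, 137081456 to 137116644, minus strand). It had 45.9, 31.3 and 51.8 CPM in DMSO replicates 1, 2 and 3, and 63.3, 58.9 and 73.5 CPM in the GSK-126 libraries of the same numbers. Every GSK-126 library was thus above every DMSO library, as was found for 5.43% of all genes tested, and the lowest value belonged to DMSO replicate 2. The log2 ratio within pairs was 0.46, 0.91 and 0.50. The fitted log2 fold change was 0.62 (SE 0.131, 95% interval 0.33 to 0.91; edgeR adjusted p = 0.0265). The call depended on replicates 2 and 3. Without replicate 2 the log2 fold change was 0.50 with an edgeR adjusted p = 0.138, and without replicate 3 it was 0.68 with an adjusted p = 0.0583, whereas without replicate 1 it was 0.70 with an adjusted p = 0.0130.

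The promoter of Jag1 is shown because EZH2 and its complex act mainly at promoters rich in CpG dinucleotides. RefSeq windows of 300 bases (250 before and 50 after a start site, GRCm38.p6) were found for 8 of the 10 members, all but Hes1 and Hey1, and gave 9 windows, since Dll1 had a pair of them. The Jag1 window (chr2:137116471-137116770, minus strand) held 22 CpG, which are in capitals below. The Dll3 window (chr7:28301736-28302035, minus strand), of the ligand with the lowest level, is given for comparison and held 11.
Jag1: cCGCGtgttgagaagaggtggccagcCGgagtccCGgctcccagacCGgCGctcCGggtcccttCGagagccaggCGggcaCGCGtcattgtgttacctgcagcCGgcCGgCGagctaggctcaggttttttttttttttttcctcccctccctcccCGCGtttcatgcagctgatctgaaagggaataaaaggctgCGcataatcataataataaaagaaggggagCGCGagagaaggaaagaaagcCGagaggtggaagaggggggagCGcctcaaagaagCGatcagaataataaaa
Dll3: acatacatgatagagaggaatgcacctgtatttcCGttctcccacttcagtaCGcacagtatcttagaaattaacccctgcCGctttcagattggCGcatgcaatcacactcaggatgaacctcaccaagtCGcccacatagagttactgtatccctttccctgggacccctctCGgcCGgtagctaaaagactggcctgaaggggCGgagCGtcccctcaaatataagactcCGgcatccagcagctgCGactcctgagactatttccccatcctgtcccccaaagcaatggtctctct
Over all 32851 windows the median was 7 CpG, and all 9 windows of members lay above it, from 11 in Dll3 to 63 in Jag2. Among all windows, that of Jag1 stood at percentile 77.7 for CpG count and that of Dll3 at percentile 59.5. Jag1 did not stand out among the members. The windows of Jag2 (63), Notch2 and Hes5 (41 each), Notch3 (25) and Notch1 (23) held more CpG, and those of Dll1 held 24 and 15. None of these genes was called.

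Some markers of mural cells, which are known to carry Jag1 in vessels, were also called higher. Of 7 mural markers 6 were tested and 3 were called higher (Acta2, Anpep and Pdgfrb), where 2.23% of all genes tested were. The summed level of the 7 was 465 to 769 CPM with DMSO and 832 to 1103 with GSK-126. Most of it was Acta2, with 274 to 506 CPM and 556 to 702 CPM. Rgs5, a pericyte gene, ran from 14.002 to 52.8 CPM with DMSO and from 29.3 to 74.4 with GSK-126 and was higher in 3 of 3 pairs, but did not pass the test (log2 fold change 0.62, edgeR adjusted p = 0.053). Abcc9, Myh11 and Kcnj8 were low, with at most 3.65, 4.21 and 1.73 CPM, and did not share a direction. Abcc9 (log2 fold change -0.15, edgeR adjusted p = 0.939) and the untested Kcnj8 were each lower in 2 of 3 pairs. Myh11 (0.61, edgeR adjusted p = 0.569) was higher in 3 of 3. Of the 5 fibroblast markers 1 was called higher (Col1a1) and 4 did not pass the test. All 5 had a positive log2 fold change, and 4 were higher in all 3 pairs, where 19.7% of all genes tested were. The fibroblast sums, 6698 to 8767 CPM with DMSO and 8801 to 9749 with GSK-126, did not overlap. Of 7 endothelial markers 6 were tested and 1 was called higher (Flt1), with endothelial sums from 63.6 to 90.7 and from 69.6 to 86.9 CPM. Of 8 granule neuron markers 4 were called lower (Etv1, Gabra6, Neurod1 and Rbfox3), where 1.42% of all genes tested were. The granule neuron sums ran from 4212 to 5447 CPM with DMSO and from 2956 to 4513 with GSK-126. Of 8 cerebellar GABAergic neuron markers 1 was called lower (Slc32a1), and none of the tested markers of granule neuron progenitors and proliferation (5), microglia (7) or the oligodendrocyte lineage (8) was called in either direction. Without the pairing 0 genes of any of these lists were called. The part of these cells in the Jag1 result was not tested.

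**Figure D3:**
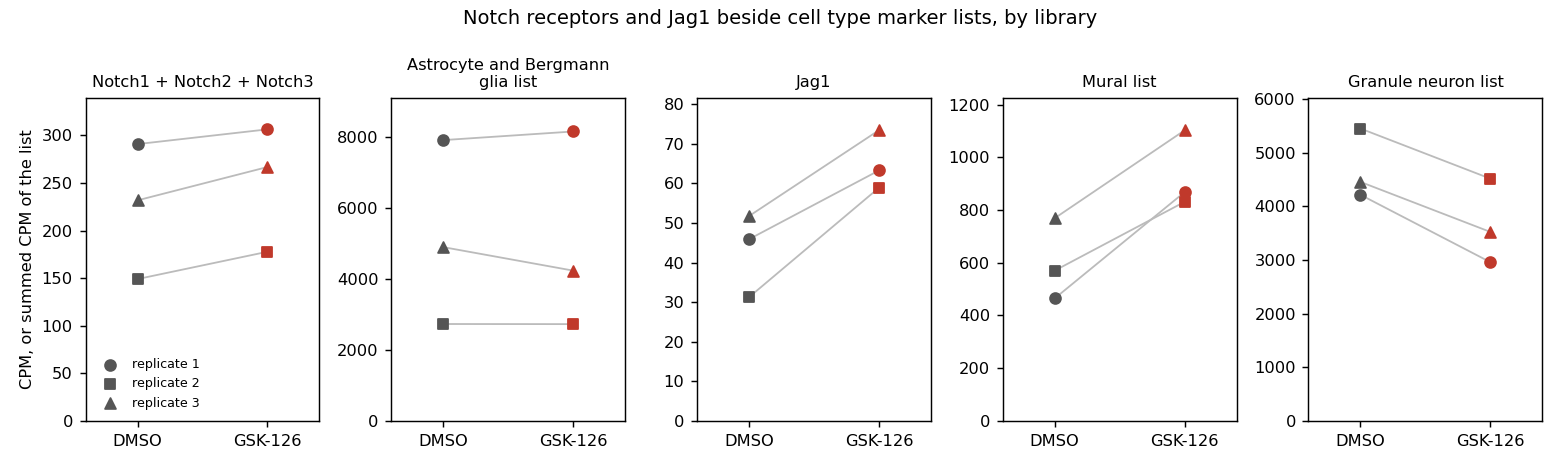
Summed CPM of the Notch receptors and of marker lists, and CPM of Jag1, in each library (DMSO dark, GSK-126 red, marker shape by replicate, grey lines joining a pair). Jag1 and the mural list are higher with GSK-126 in all 3 pairs, the granule neuron list is lower in all 3 pairs, and the receptor sum and the glial list are lowest in replicate 2 of both groups.

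Jag2 (chromosome 12, 112907819 to 112929776) had 28.4, 41.8 and 32.5 CPM with DMSO and 28.8, 38.0 and 34.2 CPM with GSK-126 in replicates 1, 2 and 3. The values of a pair lay close together, and replicate 2 was highest in both groups. The log2 fold change was -0.02 (95% interval -0.31 to 0.28; edgeR adjusted p = 0.973), so a change of Jag2 as large as the fitted change of Jag1 lay outside its interval. Per length, Jag1 made up 41.6% to 57.2% of the summed level of the 4 ligands with DMSO and 60.9% to 67.2% with GSK-126, a share that includes the rise in Jag1 itself.

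Dll1 (chromosome 17, 15367354 to 15376872), a Delta ligand that activates receptors on neighbouring cells, had 7.15, 4.38 and 9.10 CPM with DMSO and 5.33, 3.01 and 5.13 with GSK-126. The groups overlapped, although the GSK-126 library was the lower of its pair in 3 of 3 pairs. The log2 fold change was -0.60 (SE 0.282, 95% interval -1.22 to 0.02; edgeR adjusted p = 0.320). Its counts were low, from 25 to 77 per library, and A930024N18Rik on the other strand covers 20.6% of its exon length, so its level is uncertain. Dll3 (chromosome 7, 28293553 to 28302238), which unlike the other ligands acts mostly inside the cell and is known to inhibit Notch, was covered by 3, 11 and 2 counts in the DMSO libraries and by 13, 8 and 1 in the GSK-126 libraries. Both groups ran from 3 counts or fewer to 11 or more and overlapped throughout, and without the filter on low counts its edgeR adjusted p was 0.988.

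The 3 receptors overlapped in level per length, and none passed the test. Notch2 (chromosome 3, 98013527 to 98150361), known for its role in dividing granule neuron progenitors, had 141, 69.9 and 106 CPM with DMSO and 136, 101 and 114 with GSK-126. The widest gap was within replicate 2, and the groups overlapped. Its log2 fold change was 0.19 (95% interval -0.09 to 0.47; edgeR adjusted p = 0.498), and a gene on the same strand, Gm42820, overlaps 5.02% of its exons. Notch1 (chromosome 2, 26457903 to 26516663), the receptor best known from neural stem cells and glia, had 98.9, 49.6 and 73.3 CPM with DMSO and 96.4, 49.4 and 86.8 with GSK-126. The libraries of replicates 1 and 2 nearly coincided between treatments, and the fitted log2 fold change was 0.07 (95% interval -0.19 to 0.32; edgeR adjusted p = 0.833). Notch3 (chromosome 17, 32120820 to 32166852), known mainly from mural cells of vessels, had 51.2, 29.5 and 52.8 CPM with DMSO and 73.6, 27.6 and 66.1 with GSK-126. It was higher in 2 of 3 pairs, with a log2 fold change of 0.27 (95% interval -0.04 to 0.58; edgeR adjusted p = 0.383). Genes on the opposite strand overlap 9.76% of the Notch1 exons and 6.03% of those of Notch3.

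For the receptors, replicate 2 stood below the other cultures under both treatments. The summed level of the 3 receptors was 149 CPM in DMSO replicate 2, against 291 and 232 in replicates 1 and 3, and 178 CPM in GSK-126 replicate 2, against 306 and 267. Replicate 2 was the lowest of its group in both treatments for 7 of the 10 members (Jag1, Dll1, Notch1, Notch2, Notch3, Hes1 and Hes5) and the highest in both for Jag2 and Hey1, where 21.2% and 20.9% of all genes tested were so placed. This pattern was looked for after the values were seen. The astrocyte and Bergmann glia genes were placed alike, with 8 of 10 lowest in replicate 2 of both groups, whereas 7 of 8 granule neuron genes were highest there. So placed at the low end were also 5 of 7 microglia, 3 of 5 fibroblast and 4 of 8 GABAergic neuron genes. The 8 oligodendrocyte lineage genes split, with 3 lowest and 3 highest. Over all marker lists 27 of 67 genes were lowest and 11 highest in replicate 2 of both groups. In replicate 2 the glial sum was 2728 CPM with DMSO and 2725 with GSK-126, against 4893 to 7905 and 4231 to 8148 in the other libraries. Of the 10 glial genes 1 was called between treatments (Gdf10, higher). The part of RNA from glia or from these other cell types in the level of the receptors was not tested.

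Of the targets, Hes1 (chromosome 16, 30064384 to 30067796) is induced by Notch in many tissues and keeps progenitors undifferentiated. It had 17.4, 14.5 and 19.1 CPM with DMSO and 20.5, 16.5 and 22.1 with GSK-126. The 3 pairs moved by similar amounts, with log2 ratios of 0.23, 0.18 and 0.20, but the groups overlapped and the log2 fold change of 0.21 did not pass the test (SE 0.166, 95% interval -0.16 to 0.58; edgeR adjusted p = 0.588). Hey1 (chromosome 3, 8663359 to 8667256), which pairs with HES proteins on DNA, had 68.6, 86.9 and 82.9 CPM with DMSO and 67.7, 82.7 and 59.1 with GSK-126. Replicates 1 and 2 barely differed between treatments, and replicate 3 carried most of the fitted log2 fold change of -0.19 (95% interval -0.47 to 0.08; edgeR adjusted p = 0.491), which was -0.04 without it.

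Hes5 (chromosome 4, 154960923 to 154962371), a target known from neural progenitors and Bergmann glia, had 8.54, 6.001 and 11.6 CPM with DMSO and 7.50, 4.34 and 6.83 with GSK-126. It was lower in 3 of 3 pairs, yet the groups overlapped, and the log2 fold change of -0.47 had a wide error (SE 0.253, 95% interval -1.03 to 0.09; edgeR adjusted p = 0.394). Its counts ran from 36 to 98 per library, and Gm20421 on the opposite strand overlaps 31.8% of its exons. The promoter of Hes5 is shown because it holds the core of the RBPJ site, TGGGAA, through which Notch acts on DNA. In the RefSeq window chr4:154960673-154960972 (GRCm38.p6, plus strand) the core is in capitals, 82 bases before the start site as transcribed and 226 bases before it on the opposite strand (TTCCCA).
Hes5: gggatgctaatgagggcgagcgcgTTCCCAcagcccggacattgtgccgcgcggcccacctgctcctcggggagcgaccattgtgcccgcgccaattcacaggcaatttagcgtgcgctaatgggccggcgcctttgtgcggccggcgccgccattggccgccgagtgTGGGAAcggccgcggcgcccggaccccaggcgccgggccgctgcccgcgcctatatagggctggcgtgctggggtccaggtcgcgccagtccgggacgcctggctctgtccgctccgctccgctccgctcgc
The core, searched on both strands, occurred in 1 of the 9 windows of members, which do not include Hes1 and Hey1, and in 25.6% of all 32851 windows. A match in letters is a description of the window.

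The targets did not move in a common direction. Hes1 was higher in 3 of 3 pairs and Hes5 and Hey1 were lower in 3 of 3, and none of the 3 passed the test. Over the 9 members tested, 2 were higher in all 3 pairs and 3 were lower in all 3, where 19.7% and 19.3% of all genes tested were. The median log2 fold change of the 9 members was 0.07, and that of all genes tested was -0.00.

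**Figure D4:**
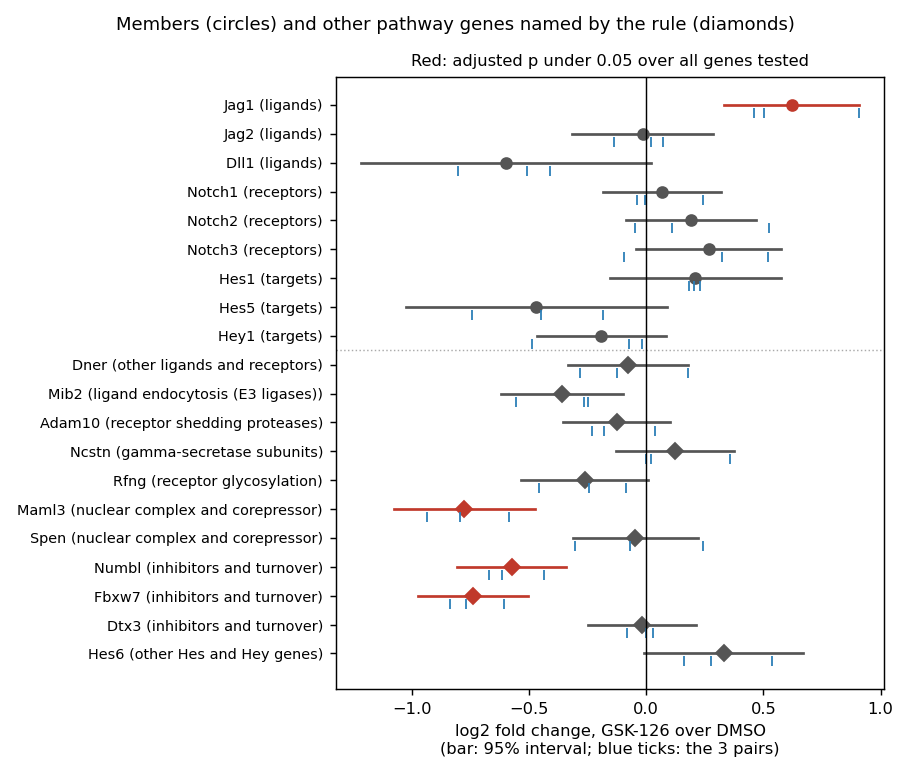
Log2 fold change of GSK-126 over DMSO with its 95% interval from the paired edgeR fit for the 9 members tested (circles) and 11 other pathway genes (diamonds), with blue ticks for the 3 pairs and red for an adjusted p under 0.05. Jag1 (0.62) lies to the right of 0, and Maml3 (-0.78), Fbxw7 (-0.74) and Numbl (-0.57) lie to the left.

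The rest of the pathway was followed through a list of 44 genes by role, of which 40 were tested, 0 were called higher and 3 were called lower with the pairing, where 2.23% of all genes tested were called higher and 1.42% lower. Counts at an unadjusted p under 0.05 were 6 of 40 with edgeR, where 16.7% of all genes tested had one, 4 with DESeq2 and 6 with limma-voom. Without the pairing 3 had one in edgeR and 0 were called. The median log2 fold change of the 40 was -0.04. The groups did not overlap for 2 genes that were higher with GSK-126 and 2 that were lower, where 5.44% of all genes tested were lower in this way. Dlk1, Hes2, Hes3 and Mfng were not tested, of which Dlk1 and Hes2 had 0 counts in all 6 libraries, which allows up to 0.375 CPM in a library.

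The 3 genes that fell were a coactivator and a pair of inhibitors. Maml3, a Mastermind coactivator that joins the RBPJ complex, had 38.8, 61.4 and 43.1 CPM with DMSO and 20.2, 35.3 and 28.7 with GSK-126. No GSK-126 library reached the lowest DMSO library, and the gene fell by 0.78 on the log2 scale (SE 0.137, 95% interval -1.08 to -0.47; edgeR adjusted p = 0.0124). Fbxw7, the part of a ubiquitin ligase that marks the intracellular domain of Notch and other proteins such as MYC for degradation, had 134, 300 and 173 CPM with DMSO and 78.4, 168 and 114 with GSK-126. It was lower in 3 of 3 pairs, though the groups overlapped and replicate 2 was highest in both, and it fell by 0.74 (SE 0.106; edgeR adjusted p = 0.00515). Numbl, a relative of the Notch inhibitor Numb, had 158, 259 and 178 CPM with DMSO and 103, 163 and 132 with GSK-126. It fell by 0.57 (SE 0.106; edgeR adjusted p = 0.0143), again in 3 of 3 pairs with replicate 2 highest. Without the pairing the log2 fold change was -0.77 for Maml3, -0.75 for Fbxw7 and -0.58 for Numbl, with edgeR adjusted p-values of 0.814, 0.825 and 0.814. Without replicate 2 Maml3 (log2 fold change -0.75, edgeR adjusted p = 0.0779) and Numbl (-0.51, adjusted p = 0.108) were no longer called. Of 8 granule neuron markers 4 were called lower in the same libraries, as given above. Not called were Pax6 (log2 fold change 0.04, edgeR adjusted p = 0.895), Reln (-0.13, adjusted p = 0.708), Zic1 (-0.37, adjusted p = 0.0535) and Zic2 (-0.27, adjusted p = 0.212). The part of granule neuron RNA in the results for Maml3, Fbxw7 and Numbl was not tested.

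No other gene of the list passed the test. The most abundant gene of each role per length is given here. Adam10, the protease that first cuts the bound receptor, had 55.1 ± 2.87 CPM per kb with DMSO (SD, n = 3) and a log2 fold change of -0.12 (edgeR adjusted p = 0.613). Ncstn, the gamma-secretase subunit that receives the substrate, had 28.8 ± 3.39 CPM per kb and 0.12 (adjusted p = 0.657). Among the 7 gamma-secretase subunits, Psen2 (4.43 CPM per kb) and Aph1c (2.39) had the lowest mean levels with DMSO. Dner, a transmembrane protein described as a ligand for Notch on Bergmann glia, had 36.6 ± 6.83 CPM per kb, more than any of the 4 ligands above, and a log2 fold change of -0.08 (edgeR adjusted p = 0.807). Dtx3, a Deltex family member, had 41.2 ± 3.67 CPM per kb and -0.02 (adjusted p = 0.961).

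Mib2, a ubiquitin ligase that drives the uptake of ligands in the sending cell, had 68.1, 85.3 and 70.3 CPM with DMSO and 56.5, 58.0 and 59.1 with GSK-126. The groups did not overlap, but the log2 fold change of -0.36 (95% interval -0.62 to -0.10) did not pass the test over all genes (edgeR adjusted p = 0.147). Rfng, a fringe enzyme that adds sugars to receptors, had a log2 fold change of -0.26 (adjusted p = 0.320), and Spen, a corepressor that binds RBPJ, had -0.05 (adjusted p = 0.901). Hes6, which is known to oppose Hes1 and favour neuronal differentiation, ranged from 21.5 to 24.5 CPM with DMSO and from 26.7 to 31.2 with GSK-126, without overlap. Its log2 fold change of 0.33 did not pass the test either (95% interval -0.01 to 0.67; edgeR adjusted p = 0.318).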

How the data were processed

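RNA had been poly(A)-selected and sequenced from both ends, and the authors used Trimmomatic 0.38 for trimming, STAR 2.7.2b for alignment (GRCm38) and HTSeq for counting over exons (study's methods and submitters' processing notes). The deposited values are raw counts, 1 library per table. The strand setting is not stated, and multiply aligned reads were not assigned. The 5 rows that name no gene, from 58.4% to 60.9% of reads, were left out.

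filterByExpr kept 16343 genes, and TMM factors ran from 0.994 to 1.01. Treatment was tested with edgeR 4.0.16 (glmQLFit, legacy=TRUE, robust=FALSE), with the replicate number as a block and Benjamini-Hochberg adjustment over all genes tested. Intervals cover 95%. Log2 ratios of pairs used a prior count of 2. DESeq2 1.42.0 and limma 3.58.1 were alternatives. The paired fit was also run on counts simulated from its own fitted model, with 200 genes changed. Such a run cannot tell whether pairing by number is right. Exon lengths and coordinates came from GENCODE M21, and CPM per kb divides by the union of annotated exons.

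The numbers were taken to pair the libraries: across genes, the correlation of deviations from the mean of the group was 0.35, 0.50 and 0.52 for equal numbers and from -0.41 to -0.01 for unequal ones, and a replicate is defined as pooled litters. Since each group was centred on its own mean, positive values for equal numbers leave negative ones on average for unequal numbers. The negative values are thus no separate evidence. With the block, the differences between cultures are taken out, and p-values rest on how the treatment difference varied between the 3 pairs. This variation is not each gene's own alone, since edgeR draws it towards values shared across all genes tested. A gene whose pairs lie close together, such as Hes1 (SE 0.166), can therefore still have a wide interval. The 95% intervals come from the same fit and rest on the same variation, whereas the floor of 3 counts covers counting error only.

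The members, the pathway list and the marker lists were chosen with earlier results of these data known. Named beside the members were pathway genes with an adjusted p under 0.05 and the most abundant gene per kb of each role, and marker genes were named after their values were seen.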

Additional observations from a re-analysis of the deposited data

How the results depend on the processing

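With DESeq2, limma-voom, edgeR with legacy=FALSE, DESeq2 size factors, total counts and no filter on low counts, all with the replicate block, Jag1 was called higher and Maml3, Numbl and Fbxw7 lower, and no other member or listed pathway gene was called (DESeq2 gave Dll1 no adjusted p). Without the replicate block 0 members, 0 pathway genes and 0 of all genes were called in either direction, and the biological coefficient of variation was 0.243, against 0.142 with the block. Without the filter on low counts, with 28842 genes tested, 708 genes were called higher and 428 lower, against 365 and 232 with it.

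Leaving out each replicate number, which leaves 4 libraries, gave 0 to 1 members called higher, 1 to 3 pathway genes called lower, and 125 to 396 genes called higher and 53 to 308 lower over all genes, the lowest without replicate 2. In these fits the log2 fold change changed sign for Jag2 (-0.057 to 0.063), Notch1 (-0.021 to 0.13), Dner (-0.19 to 0.027), Spen (-0.19 to 0.086) and Dtx3 (-0.041 to 0.030), none of which was called. With the longest transcript as length in place of all exons, Hey1 stayed highest (32.8 CPM per kb) and Dll1 and Dll3 lowest, Hes1 (11.6) moved above Notch2, and Notch1 moved from rank 7 to rank 4. Depth was too low to test Dll3, with 1 to 13 counts per library, and the pathway genes Dlk1, Hes2, Hes3 and Mfng, with at most 6.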
